A study of Mus musculus with 198 samples.

Results

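The 7 genes described here encode the insulin-like growth factors (Igf1, Igf2), the receptors that bind them or insulin (Igf1r, Igf2r, Insr) and 2 adaptor proteins that carry the receptor signal into the cell (Irs1, Irs2). They were chosen by gene name, and all 7 were found among the 56332 genes of the table. C57BL/6 mice were given an antibody against PAPP-A (aPAPPA, 5 male and 5 female mice) or a control antibody (control, 6 male and 6 female mice) for 17 weeks. From each of the 22 mice, 9 whole tissues were then sequenced as total RNA. Neither the mice's age nor the dose or nature of either antibody is stated in the labels. The question the design poses is whether blocking PAPP-A changes gene expression in these tissues, here among the genes that make and receive the IGF signal.

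IGF1 and IGF2 circulate and act locally while held by binding proteins, some of which PAPP-A, a secreted metalloprotease, cuts to set IGF free. Freed ligand binds the IGF1 receptor, a tyrosine kinase closely related to the insulin receptor, and both kinases phosphorylate IRS1 and IRS2, which recruit PI3-kinase. The IGF2 receptor, which also binds mannose 6-phosphate, has no kinase and clears IGF2 by uptake. Growth hormone drives Igf1 transcription in liver, the main source of circulating IGF1, and Igf2 is an imprinted gene expressed mainly before birth in rodents.

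The genes lie at these places on mm10 (GENCODE vM21): Igf1 at chr10:87858265-87937042 on the plus strand, Igf2 at chr7:142650766-142666816 on the minus strand, Igf1r at chr7:67952827-68233668 on the plus strand and Igf2r at chr17:12682406-12769664 on the minus strand. Insr (chr8:3122061-3279617), Irs1 (chr1:82233101-82291416) and Irs2 (chr8:10984681-11008458) are all on the minus strand. Several overlap other annotated genes, mostly on the opposite strand, and reads of such pairs could be shared since the strand setting of the counting is not stated. Among these, Airn, which overlaps Igf2r, had a median of 31.5 counts per library beside 199 for Igf2r, and Gm9747, which overlaps Irs1, had a median of 17.5 counts beside 34 for Irs1. The other overlapping genes that were found in the table did not exceed 14 counts in any library.

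Irs1 and Irs2 were both highest in the fat depots, and part of each promoter is shown for that reason. RefSeq sequence (GRCm38.p6) was available for 6 of the 7 genes. The stretches below end upstream of the RefSeq start of each gene. The capitals mark a run of 10 bases that the 250 bases before the 2 starts have in common, the greatest length shared. It is not the only run of that length, since both stretches also hold TGTTTTGCTC, which overlaps the capitals and has no CACGTG. The Irs1 window is chr1:82291523-82291580 and the Irs2 window chr8:11008942-11008999, both read on the minus strand.
Irs1: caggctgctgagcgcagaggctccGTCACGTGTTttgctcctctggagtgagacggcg
Irs2: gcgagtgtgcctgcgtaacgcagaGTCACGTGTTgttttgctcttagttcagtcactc
The marked run, GTCACGTGTT, begins 117 bases before the Irs1 start and 46 bases before the Irs2 start. Searched on both strands, it was found in 23 of 32851 promoters of the same length (0.07%). It contains CACGTG, the letters known as an E-box, which 1978 of these promoters held (6.02%). The Igf2r promoter also held CACGTG, while the Igf1 and Igf1r promoters and the 4 listed for Igf2 did not. These matches are a description of letters and were not tested for binding.

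Values are given as CPM (the counts of a gene scaled to the same library total), computed after 9 very abundant features were left out. By mean share of counts the largest were Lars2 (25.52%), Gm42418 (23.01%), AK155692 (16.04%) and NR_046233 (9.252%). The mitochondrial ribosomal RNA genes mt-Rnr2 (3.804%) and mt-Rnr1 (1.046%) were also among them. All 9 were kept in the tests of aPAPPA and of sex. Together the 9 features held 47.4% to 99.5% of the counts of a library (median 87.4%). The total count per library ran between 4138419 and 19517950, which left between 33377 and 4694597 counts for all other genes. A library was set aside as in doubt when the mean log2 CPM of the defining markers of its labelled tissue lay more than 2 below the tissue's median, or when under 1000 genes had at least 10 counts. This concerned 6 libraries. The library labelled lung of control male 68 had a mean of 1.72 log2 CPM over the lung epithelium markers, against a lung median of 11.49, and 10.35 over adipocyte markers. The others were the hearts of aPAPPA male 56 and control female 22, the gonadal fat of aPAPPA male 58, the subscapular fat of control female 20 (11.02 over skeletal muscle markers) and the skin of aPAPPA female 36, in which 308 genes reached 10 counts. Results are given with all libraries and, where it matters, also without these 6.

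**Figure D1:**
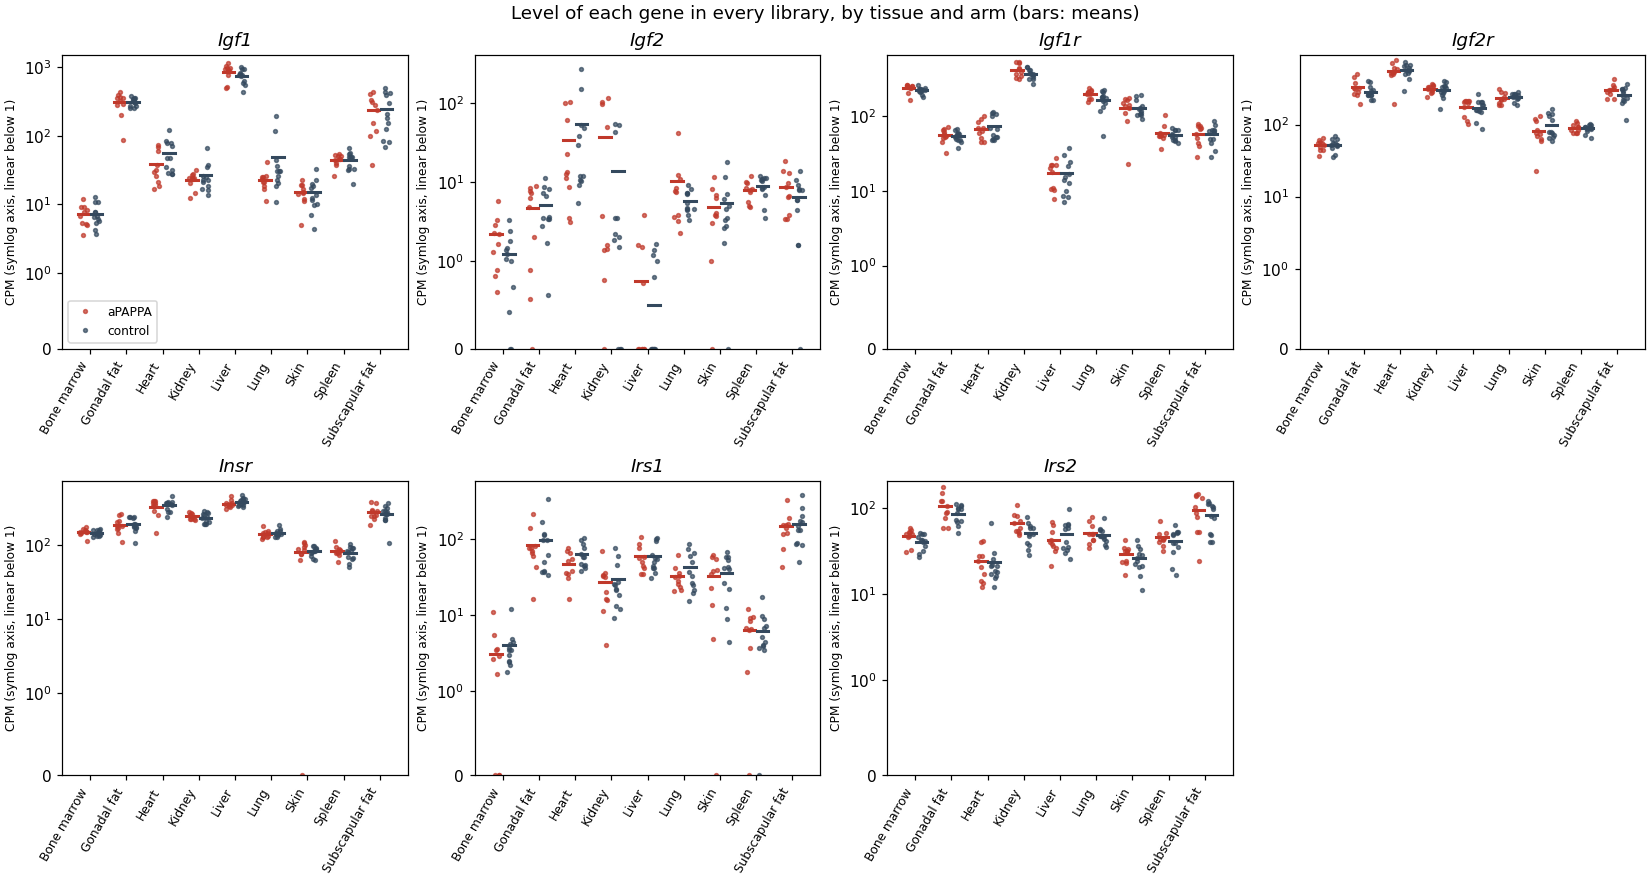
CPM of the 7 genes in every library (points) with the mean of each arm (bars), by tissue, aPAPPA left of control, on an axis that is linear below 1 CPM and logarithmic above. Each gene spreads widely over the tissues: Igf1 averaged 865 CPM in aPAPPA livers and 751 CPM in control livers, against 7.18 and 7.29 CPM in the marrow of the same arms.

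The ligand Igf1 was most abundant in liver, where it averaged 865 ± 209 CPM in aPAPPA mice and 751 ± 169.8 CPM in control mice (SD, n = 10 and 12, as in all such pairs below). The order of tissues given for each gene is that of the control means, and its neighbours were compared in control mice. The fat depots came next, with 309 ± 102 CPM in aPAPPA mice and 314 ± 43.2 CPM in control mice in the gonadal depot and 240.3 ± 134 CPM in aPAPPA mice and 246 ± 156 CPM in control mice in the subscapular depot. In control mice liver exceeded gonadal fat by 1.39 ± 0.26 (SE) on the log2 scale (edgeR, adjusted p = 2.7e-06), while the 2 depots did not differ beyond their spread (adjusted p = 0.372). Heart averaged 38.05 ± 21.2 CPM in aPAPPA mice and 56.2 ± 29.8 CPM in control mice. Spleen had 44.8 ± 8.59 CPM in aPAPPA mice and 43.5 ± 13.2 CPM in control mice, and lung had 22.9 ± 8.01 CPM in aPAPPA mice and 48.5 ± 53.4 CPM in control mice. The control lung mean includes the library of control male 68, in doubt for its few lung markers, at 194 CPM. Without this library the control lung mean lies below that of spleen. Over the males of both arms, lung averaged 45.3 CPM with it and 30.4 CPM without it. Heart, lung and spleen form a middle level whose neighbours in the order did not differ beyond their spread. Below them came kidney, with 22.8 ± 5.85 CPM in aPAPPA mice and 26.8 ± 14.4 CPM in control mice. Skin averaged 14.97 ± 4.97 CPM in aPAPPA mice and 14.97 ± 7.69 CPM in control mice, and marrow, the lowest, 7.18 ± 2.504 CPM in aPAPPA mice and 7.29 ± 2.77 CPM in control mice. Each of these last steps passed the test in control mice (adjusted p = 0.0137, 0.0267 and 0.0153).

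Igf2 was scarce in these adult tissues and unevenly spread among mice. Heart averaged 33.4 ± 38.5 CPM in aPAPPA mice and 53.3 ± 77.95 CPM in control mice, and single hearts ran between 3.11 and 101.7 CPM in aPAPPA mice and between 5.34 and 267 CPM in control mice. Kidney had 37.3 ± 49.05 CPM in aPAPPA mice and 13.6 ± 21.9 CPM in control mice. In control mice heart stood above kidney by 2.0 ± 0.42 (SE) log2 (adjusted p = 2.44e-05), whereas in aPAPPA mice the kidney mean was the higher of the 2. Spleen averaged 7.82 ± 2.27 CPM in aPAPPA mice and 8.76 ± 2.73 CPM in control mice and subscapular fat 8.67 ± 4.99 CPM in aPAPPA mice and 6.37 ± 3.98 CPM in control mice. In lung the means were 10.1 ± 11.7 CPM in aPAPPA mice and 5.75 ± 1.87 CPM in control mice. Skin had 4.804 ± 3.41 CPM in aPAPPA mice and 5.44 ± 4.82 CPM in control mice. From kidney down to gonadal fat, which had 4.67 ± 3.49 CPM in aPAPPA mice and 5.07 ± 3.25 CPM in control mice, no neighbours differed beyond their spread. Marrow had 2.17 ± 1.54 CPM in aPAPPA mice and 1.23 ± 0.956 CPM in control mice, below gonadal fat in control mice (adjusted p = 0.0145). In liver Igf2 averaged 0.768 ± 1.26 CPM in aPAPPA mice and 0.499 ± 0.646 CPM in control mice, not separated from marrow (adjusted p = 0.343), and 6 of 10 aPAPPA livers and 7 of 12 control livers had no count.

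Igf1r, the kinase receptor for both ligands, was lowest where Igf1 was highest. It peaked in kidney, with 413 ± 82.7 CPM in aPAPPA mice and 366 ± 56.1 CPM in control mice, and next in marrow, with 234 ± 29.3 CPM in aPAPPA mice and 218 ± 20.9 CPM in control mice. Lung averaged 196 ± 25.6 CPM in aPAPPA mice and 164 ± 47.5 CPM in control mice and skin 128 ± 45.8 CPM in aPAPPA mice and 128 ± 32.5 CPM in control mice. Kidney exceeded marrow and marrow exceeded lung (adjusted p = 0.000474 and 8.72e-05), while lung and skin did not differ beyond their spread (adjusted p = 0.211). Heart had 67.1 ± 18.8 CPM in aPAPPA mice and 72.1 ± 26.6 CPM in control mice. Spleen averaged 59.9 ± 17.4 CPM in aPAPPA mice and 55.1 ± 8.27 CPM in control mice, subscapular fat 57.9 ± 16.7 CPM in aPAPPA mice and 56.4 ± 16.3 CPM in control mice and gonadal fat 54.99 ± 11.4 CPM in aPAPPA mice and 53.2 ± 8.55 CPM in control mice, and these 3 were not separated. Liver, where Igf1 was highest, had the lowest Igf1r level, 17.1 ± 6.66 CPM in aPAPPA mice and 17.1 ± 9.42 CPM in control mice, 1.5 ± 0.18 log2 below gonadal fat in control mice (adjusted p = 3.16e-12). Over the 9 tissue means of log2 CPM in control mice, Igf1r and Igf1 had a Pearson r of -0.841, given as a description over 9 points that share mice and scaling.

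Igf2r, the clearing receptor, peaked in heart at 545 ± 157 CPM in aPAPPA mice and 562 ± 121 CPM in control mice, 0.88 ± 0.13 log2 above kidney in control mice (adjusted p = 3.81e-09). Kidney had 312 ± 38.7 CPM in aPAPPA mice and 303 ± 65.3 CPM in control mice. Gonadal fat averaged 330 ± 95.8 CPM in aPAPPA mice and 286 ± 60.4 CPM in control mice and subscapular fat 304 ± 60.5 CPM in aPAPPA mice and 258 ± 66.7 CPM in control mice. Lung had 236 ± 42.97 CPM in aPAPPA mice and 243 ± 28.4 CPM in control mice, and from kidney to lung no neighbours differed beyond their spread. Liver averaged 176 ± 45.1 CPM in aPAPPA mice and 172 ± 48.2 CPM in control mice. Skin had 81.4 ± 32.5 CPM in aPAPPA mice and 98.9 ± 37.3 CPM in control mice and spleen 89.7 ± 12.7 CPM in aPAPPA mice and 88.2 ± 10.8 CPM in control mice, which were not separated (adjusted p = 0.198). Marrow was lowest, with 52.04 ± 8.61 CPM in aPAPPA mice and 52.5 ± 9.62 CPM in control mice. In control mice heart thus held the highest mean of both Igf2 and its clearing receptor.

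Insr, the insulin receptor, was highest in liver and heart. Liver had 360.5 ± 42.3 CPM in aPAPPA mice and 382 ± 42.01 CPM in control mice and heart 326 ± 78.2 CPM in aPAPPA mice and 344 ± 59.7 CPM in control mice, which missed the threshold between them (adjusted p = 0.0525). Subscapular fat averaged 277 ± 60.2 CPM in aPAPPA mice and 261 ± 66.2 CPM in control mice and kidney 242 ± 22.1 CPM in aPAPPA mice and 233 ± 35.99 CPM in control mice. Gonadal fat had 188 ± 46.97 CPM in aPAPPA mice and 190 ± 40.7 CPM in control mice. Liver, heart and fat are classical targets of insulin. The Insr order did not follow that grouping throughout. In control mice kidney exceeded gonadal fat by 0.38 ± 0.11 (SE) log2 (edgeR, adjusted p = 0.00115). Lung averaged 141 ± 16.8 CPM in aPAPPA mice and 146 ± 16.3 CPM in control mice and marrow 149.6 ± 16.5 CPM in aPAPPA mice and 145 ± 12.04 CPM in control mice. The lowest levels were in skin, with 79.3 ± 31.5 CPM in aPAPPA mice and 81.3 ± 11.3 CPM in control mice, and spleen, with 82.7 ± 14.4 CPM in aPAPPA mice and 77.4 ± 16.1 CPM in control mice, and the step between marrow and skin was 0.93 ± 0.11 log2 (adjusted p = 7.21e-13).

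The adaptors Irs1 and Irs2 shared a peak in fat and differed elsewhere. Irs1 averaged 147 ± 76.2 CPM in aPAPPA mice and 158 ± 89.7 CPM in control mice in subscapular fat and 83.7 ± 54.3 CPM in aPAPPA mice and 98.3 ± 85.05 CPM in control mice in gonadal fat, a step of 0.76 ± 0.29 log2 in control mice (adjusted p = 0.0318). Heart had 47.2 ± 19.3 CPM in aPAPPA mice and 62.8 ± 22.2 CPM in control mice and liver 59.1 ± 24.2 CPM in aPAPPA mice and 59.5 ± 25.8 CPM in control mice. Lung averaged 32.4 ± 12.4 CPM in aPAPPA mice and 42.6 ± 23.8 CPM in control mice, skin 32.5 ± 21.8 CPM in aPAPPA mice and 36.1 ± 21 CPM in control mice and kidney 26.9 ± 18.4 CPM in aPAPPA mice and 29.6 ± 20.7 CPM in control mice. No neighbours between gonadal fat and kidney differed beyond their spread. Spleen, with 6.38 ± 3.68 CPM in aPAPPA mice and 6.203 ± 4.41 CPM in control mice, and marrow, with 3.06 ± 3.33 CPM in aPAPPA mice and 3.996 ± 2.697 CPM in control mice, lay far below, 2.02 ± 0.37 log2 between kidney and spleen (adjusted p = 8.93e-07).

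Irs2 did not fall off in blood-forming tissue. Gonadal fat had 106 ± 39.1 CPM in aPAPPA mice and 86.7 ± 20.7 CPM in control mice and subscapular fat 95.9 ± 43.6 CPM in aPAPPA mice and 82.8 ± 30.7 CPM in control mice. Kidney averaged 68.01 ± 18.7 CPM in aPAPPA mice and 51.1 ± 15.1 CPM in control mice, liver 43.1 ± 14.9 CPM in aPAPPA mice and 50.6 ± 21.4 CPM in control mice and lung 52.1 ± 14.3 CPM in aPAPPA mice and 49.2 ± 11.1 CPM in control mice. Spleen had 45.8 ± 10.9 CPM in aPAPPA mice and 41.6 ± 14.1 CPM in control mice and marrow 47.8 ± 9.34 CPM in aPAPPA mice and 40.8 ± 8.09 CPM in control mice. From kidney to marrow no neighbours differed beyond their spread. Skin averaged 29.5 ± 7.65 CPM in aPAPPA mice and 26.1 ± 8.74 CPM in control mice and heart 24 ± 10.7 CPM in aPAPPA mice and 23.8 ± 14.5 CPM in control mice, which were not separated (adjusted p = 0.167).

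Each gene was also tested in each tissue against the mean of the 8 other tissues in control mice, and 48 of 63 such contrasts passed (edgeR, adjusted p under 0.05). Over all genes 63.5% of contrasts passed, so such differences were common. Liver had 3 of the 7 genes higher and 2 lower (66.1% of all genes passed), and heart had 4 of the 7 genes higher and 2 lower (63.7% of all genes passed). Kidney had 4 of the 7 genes higher and 1 lower (61.5% of all genes passed), and lung had 2 of the 7 genes higher and 2 lower (55.4% of all genes passed). Skin had 1 of the 7 genes higher and 4 lower (66.8% of all genes passed), and spleen had 1 of the 7 genes higher and 5 lower (67.8% of all genes passed). Bone marrow had 1 of the 7 genes higher and 5 lower (80.2% of all genes passed), and gonadal fat had 4 of the 7 genes higher and 1 lower (56.3% of all genes passed). Subscapular fat had 5 of the 7 genes higher and 1 lower (53.2% of all genes passed). Igf1r passed in all 9 tissues and Irs2 in 4. Of the 56 neighbouring pairs in the orders above, 24 passed, where 63.4% of all genes passed over all pairs of tissues. These 2 shares are not alike. Neighbours are the closest tissues in an order taken from the same values, while the share over all genes also covers distant pairs. Per kb of merged exons, which allows levels of different genes to be compared, the leading gene differed by tissue in control mice. Igf1 led in liver, at 75.8 ± 17.1 CPM per kb (SD), and in gonadal fat, at 31.7 ± 4.36 CPM per kb. In gonadal fat Igf2r was within the SD of Igf1, at 30.7 ± 6.49 CPM per kb. Ranks per kb were not tested. Igf1r led only in marrow, at 13 ± 1.24 CPM per kb. Igf2r led in the 6 other tissues, most in heart at 60.4 ± 12.96 CPM per kb. In subscapular fat it had 27.7 ± 7.165 CPM per kb, beside 24.8 ± 15.7 for Igf1. Between the adaptors, the Irs2 level per kb exceeded that of Irs1 most in marrow, at 6.46 ± 1.28 for Irs2 and 0.437 ± 0.295 for Irs1, whereas in heart it was 3.76 ± 2.299 for Irs2 and 6.87 ± 2.43 for Irs1.

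Among 14969 genes with at least 5 CPM in a tissue, the genes whose 9 tissue means were most like those of each gene were as follows. For Igf1 they were Lrrc59, Abca1 and Serpinf1 (Pearson r of 0.946, 0.944 and 0.944). For Igf1r they were Car9, Olfr713 and Zfp949 (0.967, 0.932 and 0.917). Igf2r was most like Msantd4, Snrpn and Inppl1 (0.991, 0.977 and 0.976), the last a lipid phosphatase known to act on the PI3-kinase product. Igf2 was most like Fam220a, Lynx1 and Klhdc1, with r between 0.948 and 0.968. Insr was most like Ugp2, Nat9 and Phyh (0.957 to 0.969), Irs1 like Ppp2r5d, Lrrc41 and Nedd4 (0.961 to 0.971), and Irs2 like Spg21, Cul4b and Orc5 (0.893 to 0.919). These are descriptions over 9 points each.

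No change of the 7 genes under the antibody was detected in any tissue. None of 58 tests of aPAPPA against control passed (edgeR, lowest adjusted p = 0.718), and 0.000891% of tests passed over all genes, namely 1 gene, the binding protein gene Igfbp5, in marrow (log2 fold change -1.56 ± 0.20, SE), where 0.00724% of the genes tested passed. DESeq2 and limma-voom also called none of the 7. At an unadjusted p under 0.05 there were 4 of 58, where 4.61% of all tests had such a p. The estimates for Insr were the smallest, between -0.06 and 0.08 log2 in the 9 tissues. In simulated kidney data the same test recovered 81.8% of genes changed 2-fold and 24.7% of those changed 1.5-fold. Most changes of that smaller size were thus missed in the simulation. The genes changed in the simulation were well counted and all had the same set spread. The rates thus do not show the recovery for scarcer or more variable genes such as Igf2, nor in other tissues. Nor do they show it for steadier genes, such as Insr and Igf2r in kidney, whose aPAPPA estimates had an SE of 0.066 and 0.075 log2. In whole tissue, fewer cells of a type and less RNA per cell cannot be told apart.

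**Figure D2:**
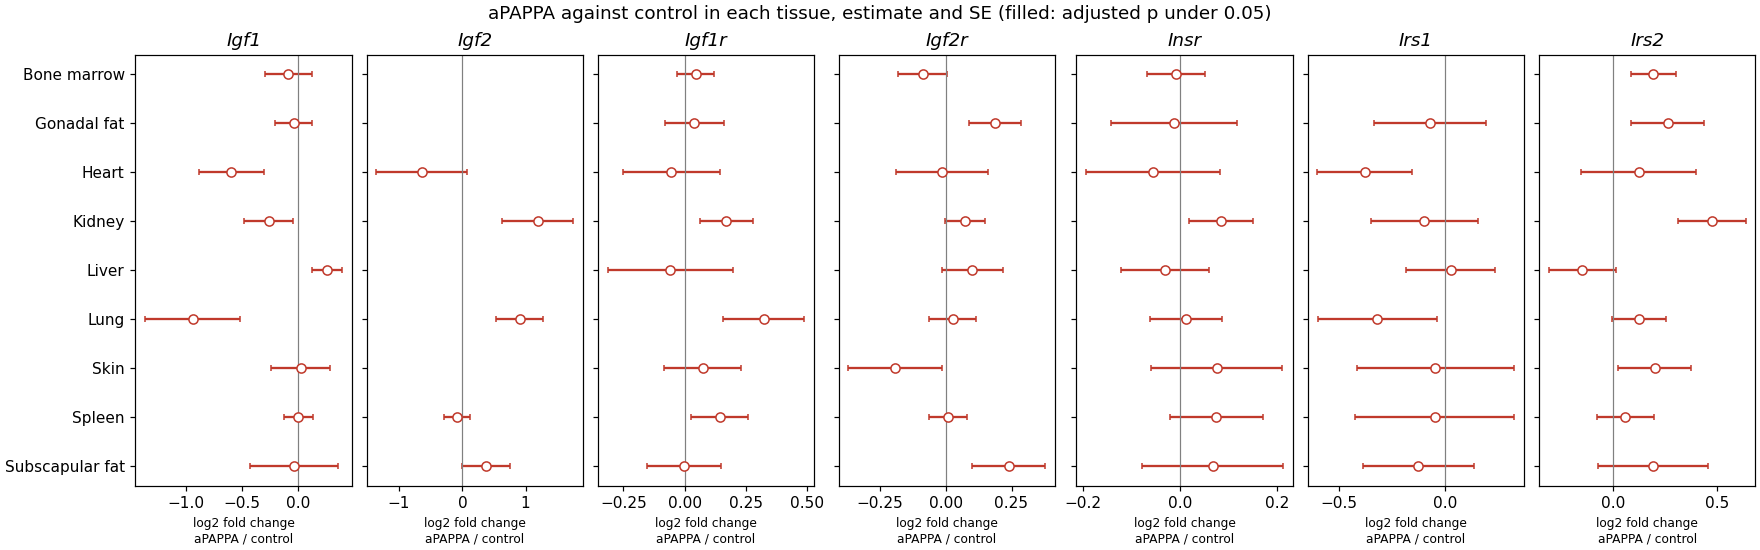
Log2 fold change of aPAPPA against control (x axis) with its standard error, by gene (panels) and tissue (rows), with sex as a covariate. All points are open because none passed an adjusted p of 0.05, and the widest error bars belong to Igf2, which has no point in tissues where it failed the filter on low counts.

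The 4 unadjusted differences concerned kidney and lung. Kidney Irs2 had 54.2, 54.5, 66.9, 83.7 and 108.3 CPM in aPAPPA males, against 28.9, 38.2 and 50.5 CPM in control males (lowest, median and highest of 6). In females it had 49, 51.7, 58.8, 72.04 and 81 CPM under aPAPPA, against 50.3, 61.1 and 78.5 CPM under control (lowest, median and highest of 6). The males of the 2 arms did not overlap, and the females did. This pair was singled out by its small unadjusted p, and how many other kidney genes separate the male arms was not counted. Of the 12626 genes tested in kidney 0% passed for aPAPPA. Over both sexes the difference was 0.47 ± 0.16 (SE) log2 (edgeR, p = 0.00789, adjusted p = 1). The sex by treatment term, which asks whether males and females respond alike, was 0.91 ± 0.28 (SE) log2 for kidney Irs2 (p = 0.00324, adjusted p = 1).

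Kidney Igf2 had 1.58, 49.9, 97.6, 101 and 115 CPM in aPAPPA females, against 0, 3.48, 3.49, 42.95, 51.6 and 54.1 CPM in control females. In males it had 0, 0.782, 1.36, 1.396 and 3.65 CPM under aPAPPA, against 0, 0, 1.52, 1.84, 1.98 and 2.17 CPM under control. Male kidneys were uniformly low, and female kidneys of both arms held both very low and high values. The aPAPPA against control difference of 1.19 ± 0.56 (SE) log2 (edgeR, p = 0.0443) did not pass after adjustment. It was 1.26 with limma-voom (adjusted p = 0.916) and 1.03 with DESeq2 (adjusted p = 0.999), and the adjusted p over all alternatives was at least 0.82.

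In lung, Igf1 had 11.2, 22.2 and 41.9 CPM in aPAPPA mice (lowest, median and highest of 10), against 10.7, 30.4 and 194 CPM in control mice (lowest, median and highest of 12). The 2 highest values belong to control males, and the highest to the library of control male 68 with few lung markers. With it the difference was -0.94 ± 0.42 (SE) log2 (edgeR, p = 0.0357), and without it -0.58 ± 0.32 (p = 0.0837). Lung Igf2 had 2.24, 7.59 and 41.9 CPM in aPAPPA mice, against 3.31, 5.01 and 9.18 CPM in control mice, and differed by 0.91 ± 0.37 (SE) log2 (edgeR, p = 0.0225, adjusted p = 0.718). The lung of aPAPPA female 33 held the highest value and the arms otherwise overlapped. The largest difference that missed an unadjusted p of 0.05 was that of heart Igf2, -0.64 ± 0.72 (SE) log2 (edgeR, p = 0.382). The arms of heart Igf2 overlapped, and only control hearts lay above the highest aPAPPA value of 101.7 CPM. The heart Igf1 difference was nearly as large, at -0.60 ± 0.29 (SE) (edgeR, p = 0.0517), and was -0.35 ± 0.24 without the 2 hearts in doubt (p = 0.166).

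In the mean over the 9 tissues of each mouse, none of the 5 genes that passed the filter in every tissue changed (limma on each mouse's mean log2 CPM, lowest adjusted p = 0.866), nor did any of the 7511 genes tested (0%). Irs2 had the smallest p, at 0.16 ± 0.07 (SE) log2 (p = 0.0287), where 3.82% of all genes had an unadjusted p under 0.05. Its estimate was positive in 8 of 9 tissues, with liver the exception at -0.15 ± 0.16 (SE), and in 7 of 9 without the libraries in doubt, when heart was at -0.08 ± 0.27 (SE). The same mice gave all tissues. Igf1 was at -0.11 ± 0.09 (SE), Igf1r at 0.08 ± 0.06 (SE), Igf2r at 0.03 ± 0.06 (SE) and Insr at -0.04 ± 0.06 (SE). Without the libraries in doubt Insr was at 0.03 ± 0.04 (SE), on the other side of 0. The aPAPPA effect did not differ detectably between tissues for any of the 7 genes (limma-voom F-test, each adjusted p = 1, none of 7 at an unadjusted p under 0.05), where 0.282% of all genes passed and 7.74% had such an unadjusted p. Over all genes 56 passed, and 15 without the libraries in doubt.

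The sex by treatment term passed for none of 59 tests (edgeR, lowest adjusted p = 0.601), as for all genes (0%). At an unadjusted p under 0.05 there were 4 of 59, against 4% of all tests. In simulated kidney data this term was recovered for 18% of genes changed 2-fold and 86.7% of those changed 4-fold, again among well counted genes. Apart from kidney Irs2, the 4 terms at an unadjusted p under 0.05 were kidney Igf1r, kidney Insr and lung Igf1. Kidney Igf1r had 427, 432, 515, 517 and 524 CPM in aPAPPA males, against 267, 391 and 452 CPM in control males (lowest, median and highest of 6), with a term of 0.48 ± 0.20 (SE) (p = 0.0235). Kidney Insr had 216, 220.3, 224, 244 and 258 CPM in aPAPPA males, against 188, 197 and 234 CPM in control males, with a term of 0.28 ± 0.12 (SE) (p = 0.0322). For both, the males of the arms overlapped, and so did the females, who also enter the term. Kidney Igf1r in females ran between 314 and 383 CPM under aPAPPA and between 313.5 and 443 CPM under control. Kidney Insr in females ran between 222 and 279 CPM under aPAPPA and between 227 and 290 CPM under control. The lung Igf1 term was -1.82 ± 0.75 (SE) (p = 0.0238) and -1.19 ± 0.60 without the library of control male 68 (p = 0.061).

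Some of the 7 genes differed between males and females. Of 58 tests of males against females 10 passed, 2 higher and 8 lower in males (edgeR, sex coefficient with treatment in the model), where 9.15% of tests over all genes passed. They fell in gonadal fat (14.4% of all genes passed), kidney (24.9%), liver (27%) and subscapular fat (15.4%). None passed in spleen (3.99%), marrow (0.659%), skin (0.338%), heart (0.203%) or lung (0.107%). For each difference below the lowest, median and highest value of the 11 males and of the 11 females are given. Igf1, the ligand, was called in none of the 9 tissues (lowest adjusted p = 0.497). Without the 2 hearts in doubt its heart difference was 0.80 ± 0.24 (SE) log2 (edgeR, unadjusted p = 0.00283, adjusted p = 0.137).

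**Figure D3:**
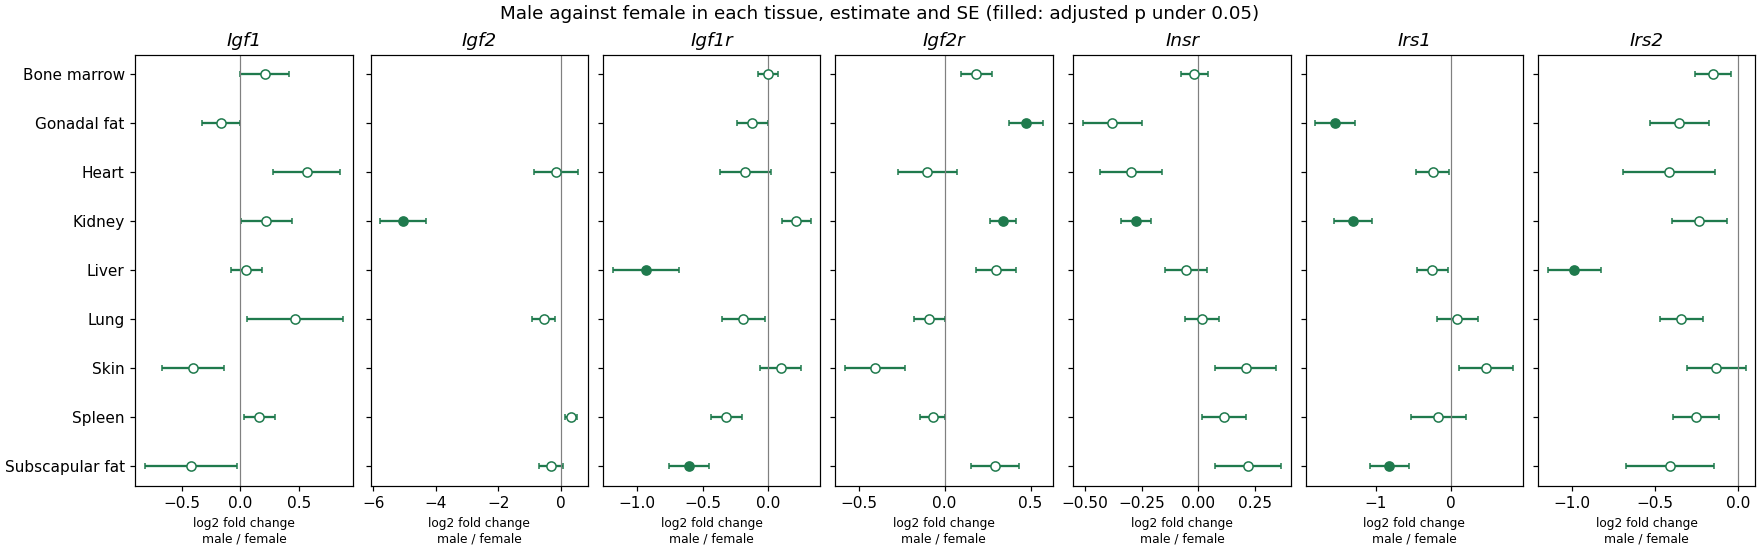
Log2 fold change of males against females (x axis, scaled per panel) with its standard error, by gene (panels) and tissue (rows). Filled points passed an adjusted p of 0.05: Igf2 in kidney lies at -5.05, Irs1 is filled in 3 tissues, always lower in males, and Igf2r is filled in 2, both higher in males.

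Igf2 differed most. In kidney it had 0, 1.396 and 3.65 CPM in males, against 0, 49.9 and 115 CPM in females, a difference of -5.05 ± 0.73 (SE) log2 (adjusted p = 9.12e-06). The fitted value depends on counts near 0, and 3 male kidneys and 1 female kidney had none. With limma-voom it was -3.98 (adjusted p = 0.0609). Among the receptors, Igf1r was lower in male liver, with 6.99, 10.6 and 22.2 CPM in males, against 8.32, 21.8 and 37.1 CPM in females, at -0.94 ± 0.25 (SE) log2 (adjusted p = 0.00827). The sexes overlapped, on 5 to 48 counts per library. In subscapular fat Igf1r had 28.3, 43.3 and 65.97 CPM in males, against 48.8, 68.4 and 84.2 CPM in females, at -0.60 ± 0.15 (SE) log2 (adjusted p = 0.0159).

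The clearing receptor Igf2r was higher in males in 2 tissues. Its gonadal fat level was 256, 329 and 507 CPM in males, against 192, 257 and 319 CPM in females, a difference of 0.47 ± 0.10 (SE) log2 (adjusted p = 0.00298). In kidney it had 311, 340.1 and 398 CPM in males, against 166, 275 and 352 CPM in females, at 0.34 ± 0.08 (SE) (adjusted p = 0.00134). Of the 11 female kidneys, all but the highest lay below the lowest male value. Kidney Insr was lower in males, with 188, 216 and 258 CPM in males, against 222, 264 and 289.8 CPM in females, at -0.28 ± 0.07 (SE) (adjusted p = 0.00276).

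Of the adaptors, Irs1 was lower in males in 3 tissues. In gonadal fat it had 16.1, 42.8 and 80.3 CPM in males, against 69.7, 114 and 333 CPM in females, at -1.55 ± 0.26 (SE) log2 (adjusted p = 5.35e-04). The sexes overlapped only between 69.7 and 80.3 CPM. Kidney Irs1 had 4.07, 15.8 and 31.3 CPM in males, against 19.9, 33.6 and 76.8 CPM in females, at -1.31 ± 0.25 (SE) (adjusted p = 3.32e-04). Subscapular fat Irs1 had 42.96, 120.1 and 172 CPM in males, against 49.7, 166 and 376 CPM in females, at -0.82 ± 0.26 (SE) (adjusted p = 0.037). That last call was lost in 12 of the 22 fits that each left out 1 mouse (adjusted p between 0.0147 and 0.073), and it was -0.93 ± 0.23 without control female 20, whose library held skeletal muscle markers (adjusted p = 0.0147). Irs2 was lower in male liver, with 21.5, 34.2 and 42.2 CPM in males, against 35.95, 63.8 and 99.1 CPM in females, at -0.99 ± 0.16 (SE) log2 (adjusted p = 6.75e-05), and its estimate was negative in all 9 tissues without passing in the other 8.

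A further 7 differences had an unadjusted p under 0.05 and did not pass after adjustment, which makes 17 of 58, where 21.3% of all tests had such a p. Igf2r was at 0.30 ± 0.12 (SE) log2 in liver (adjusted p = 0.0556), at 0.29 ± 0.14 (SE) in subscapular fat (adjusted p = 0.147) and at -0.40 ± 0.18 (SE) in skin (adjusted p = 0.477). Insr was at -0.38 ± 0.13 (SE) in gonadal fat (adjusted p = 0.0508) and at -0.30 ± 0.14 (SE) in heart (adjusted p = 0.469). Igf1r was at -0.32 ± 0.12 (SE) in spleen (adjusted p = 0.132), and Irs2 at -0.34 ± 0.13 (SE) in lung (adjusted p = 0.404). Gonadal fat Insr passed with DESeq2 (adjusted p = 0.0305) and limma-voom (0.033), and liver Igf2r passed with DESeq2 (0.047) and limma-voom (0.0448).

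**Figure D4:**
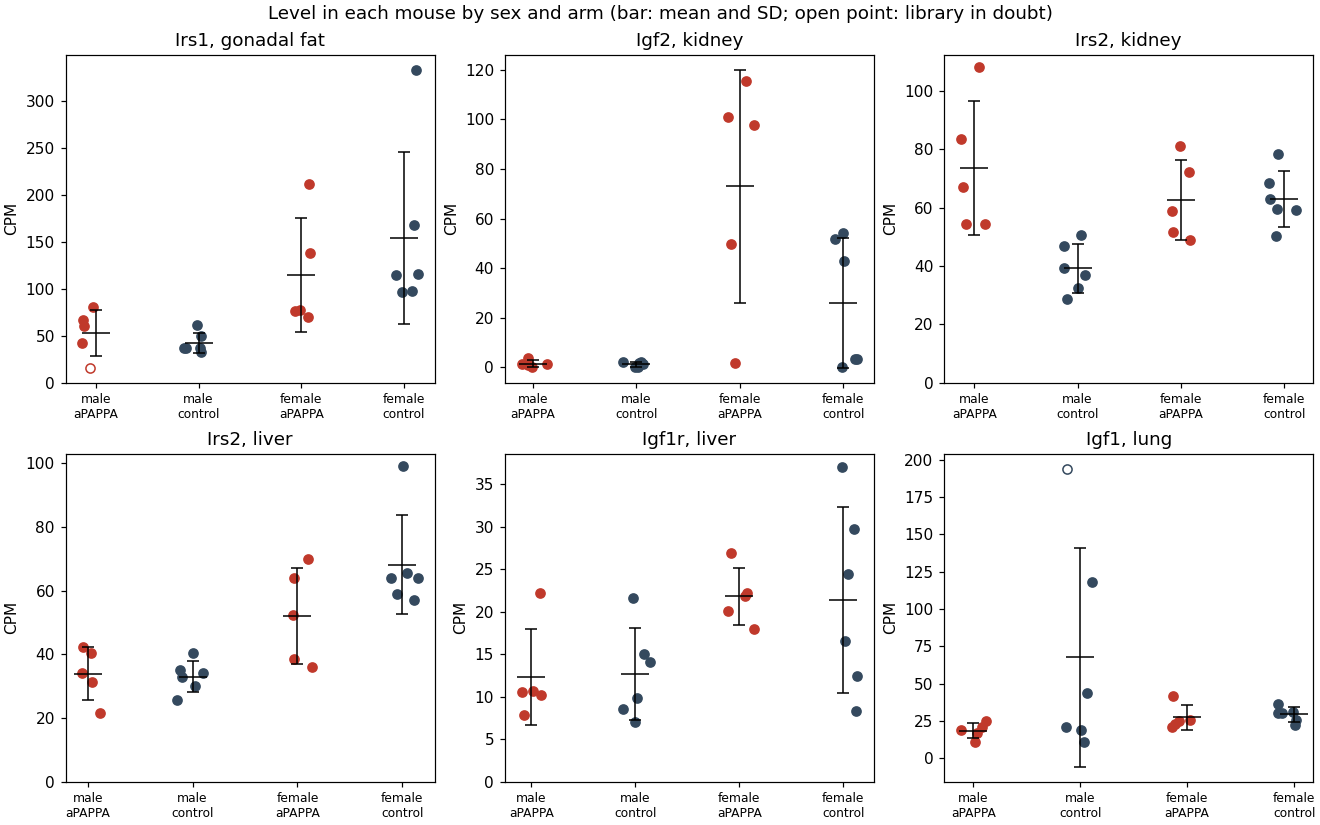
CPM in each mouse (points; open points are libraries in doubt) with the mean and SD of each group, for 6 gene and tissue pairs, males left of females and aPAPPA left of control. Kidney Irs2 lies at 54.2 to 108.3 CPM in aPAPPA males, against 28.9 to 50.5 CPM in control males, while liver Irs2 separates males from most females in both arms. The kidney Irs2 pair was singled out by its small unadjusted p, and its aPAPPA difference did not pass after adjustment.

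Whether the sex difference itself varied among tissues was tested with a limma-voom F-test over the 9 tissues, which was added after the sex results were seen. It passed for Insr (adjusted p = 0.000378), Igf2r (0.00145), Igf1r (0.00245) and Igf2 (0.00342), that is 4 of 7, where 26.2% of all genes passed. For Irs1 (0.0999), Irs2 (0.347) and Igf1 (0.482) it did not pass.

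The surrounding pathway was described through 5 lists. None of the 7 genes of growth hormone signalling and IGF carriage, the 13 receptor adaptors and inhibitors, the 19 genes of the PI3K-AKT-mTOR cascade or the 10 FoxO and fasting targets passed for aPAPPA in any tissue, and of the 10 binding proteins and proteases only Igfbp5 in marrow did. The list medians lay between -0.36 and 0.23 log2. Between the sexes, kidney had 3 growth hormone axis genes lower in males and none higher out of 7, where 24.9% of all genes passed, namely Socs2 (-1.31 ± 0.20, SE), which restrains growth hormone signalling, Igfals (-1.27 ± 0.23), which stabilises circulating IGF complexes, and Cish (-0.996 ± 0.273). The list median there was -0.23, against -0.03 over all genes. Liver had Socs2 lower (-1.10 ± 0.26) and the growth hormone receptor Ghr higher (0.68 ± 0.09) in males.

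Among receptor adaptors and inhibitors, gonadal fat had 3 of 10 tested genes higher and 2 lower in males, where 14.4% of all genes passed, and kidney had none of 9 higher and 3 lower. Grb14, an inhibitor of the insulin receptor, was higher by 2.21 ± 0.31 (SE) log2 in male gonadal fat and by 1.33 ± 0.31 in male subscapular fat, and lower in male kidney (-0.73 ± 0.13). Irs3, a rodent adaptor of the same family, was lower in male gonadal fat (-0.80 ± 0.21). Of the PI3K-AKT-mTOR genes 2 of 19 were higher and 2 lower in male kidney, a share no greater than the 24.9% of all genes, with Mtor at 0.81 ± 0.08 and Foxo3 at -0.72 ± 0.11. In liver 2 of 18 were higher and 2 lower, again no greater a share than the 27% of all genes, with Akt1 at -0.59 ± 0.11. Of 10 FoxO and fasting targets 3 were lower in male kidney and none higher (24.9% of all genes passed), including Igfbp1 (-1.24 ± 0.23), a binding protein induced in fasting. In liver 1 of 9 of these targets was higher and 2 were lower, and in gonadal fat 1 of 7 was higher and none lower. Gonadal fat had 4 of 7 genes of binding proteins and proteases lower in males and none higher (14.4% of all genes passed), with Igfbp6 at -1.57 ± 0.27 and Igfbp5 at -1.44 ± 0.25. In spleen 2 of 6 genes of the same list were higher in males and none lower (3.99% of all genes passed). The single genes named passed an adjusted p of 0.05 in edgeR.

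In liver, FoxO factors restrained by insulin are known to drive both Irs2 and Igfbp1, so Irs2 was related to Igfbp1, Insr, Irs1 and Igf1 across livers. Over all 22 livers none of the 4 relations passed (permutation test with 100000 resamples, two-sided, adjusted over 4). The relation with Igfbp1 had a Pearson r of 0.496 (p = 0.019, adjusted p = 0.076) and a Spearman rho of 0.398 (p = 0.067, adjusted p = 0.268), and without the 2 livers farthest from the Irs2 median r was 0.484. The pooled coefficients took no account of sex. Irs2 was lower in male liver, and most male livers had less Igfbp1 than any female liver. How much of the pooled r goes with sex was not tested. Within the sexes the coefficients for Igfbp1 had opposite signs. In the 11 male livers r was -0.668 (p = 0.0287, adjusted p = 0.115) and rho -0.882 (p = 0.00055, adjusted p = 0.0022). In the 11 female livers r was 0.467 (p = 0.146, adjusted p = 0.195) and rho 0.318 (p = 0.341, adjusted p = 0.514). The difference between the sexes was not tested, and Irs2 rested on 10 to 83 counts per liver. Insr had r = 0.105 with Irs2 over all livers (p = 0.639), 0.365 in males (p = 0.273) and 0.619 in females (p = 0.0443, adjusted p = 0.176). Without the 2 farthest livers its r was -0.168, of opposite sign. For Irs1 the pooled r was -0.145 and for Igf1 -0.187 (permutation adjusted p = 0.639 for each). Without the 2 farthest livers r was 0.0471 for Irs1, and in females it was -0.534 (permutation p = 0.0879, adjusted p = 0.176).

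**Figure D5:**
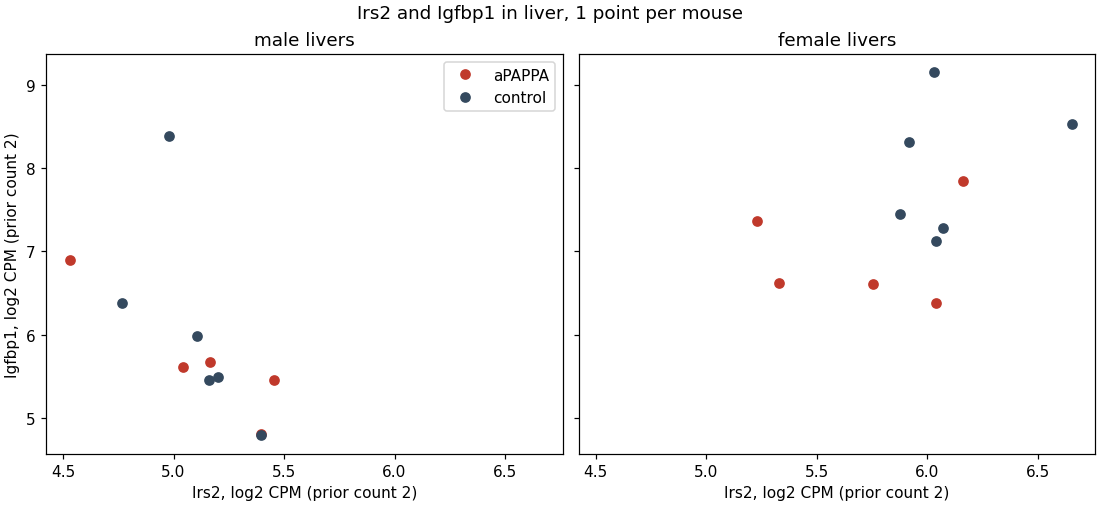
Log2 CPM of Igfbp1 (y axis) against that of Irs2 (x axis), with 1 point per liver, males in the left panel and females in the right. In males the points with the lowest Irs2 have high Igfbp1 (rho = -0.882, n = 11), and in females the points are more scattered (rho = 0.318, n = 11).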

How the data were processed

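Per the labels' protocols, RNA of whole tissues was made into stranded total RNA libraries. The tools named are FastQC 0.11.5 and Salmon, and the build is mm10, per the submitters' processing notes. The authors deposited whole-number counts per gene, and how they were rounded and with which annotation and strand setting is not given in the sources used here. All libraries were mapped to mice by their labels, and no 2 libraries were identical.

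Counts were tested per tissue with edgeR 4.0.16 (quasi-likelihood, TMM, filterByExpr, sex as covariate, R 4.3.3), adjusted by Benjamini-Hochberg over all genes tested in the tissue, threshold 0.05, two-sided. limma 3.58.1 tested means over tissues (prior count 2) and differences between tissues. DESeq2 1.42.0, limma-voom, RLE scaling and other settings were alternatives. Tissues share mice and arms do not, and the within-mouse correlation over tissues was 0.0124. The 7 genes and the lists were chosen with earlier results of these data known. All 7 are named, with a test printed wherever the unadjusted p was under 0.05 and for the largest difference missing it, plus the 3 genes most like each and up to 4 per list, of which 1 gene is not reported here. Scripts were tested on simulated counts. Printed CPM come from the deposited counts without the abundant features, after TMM scaling over all libraries.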

Additional observations from a re-analysis of the deposited data

Results flagged for a closer look

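Of 63 groups of 10 aPAPPA libraries, 11 held a value whose gap to its neighbour exceeded 0.466 of the group's range (Dixon's critical value for 10). The control groups of 12 libraries were not screened, since the critical values used stop at 10, so the arms cannot be compared here. For normally distributed values chance flags about 1 in 20 groups, and the rate for skewed values such as these was not tested. Igf1 in lung of aPAPPA female 33 was 41.9 CPM, beside a next value of 25.7 and a group median of 22.2 CPM. Igf2 in bone marrow of aPAPPA male 58 was 5.74 CPM, beside a next value of 3.31 and a group median of 1.92 CPM. Igf2 in liver of aPAPPA female 9 was 3.85 CPM, beside a next value of 1.57 and a group median of 0 CPM. Igf2 in lung of aPAPPA female 33 was 41.9 CPM, beside a next value of 12.2 and a group median of 7.59 CPM. The liver value of Igf2 rests on 1 count, as do the next values, in a library of 301790 counts outside the abundant features. The lung of female 33 stood out for 3 of the genes. Igf2r in heart of aPAPPA male 56 was 191 CPM, beside a next value of 485 and a group median of 536 CPM. Insr in skin of aPAPPA female 36 was 0 CPM, beside a next value of 62.4 and a group median of 86.3 CPM. Irs1 in bone marrow of aPAPPA female 36 was 11.03 CPM, beside a next value of 5.37 and a group median of 2.76 CPM. Irs1 in kidney of aPAPPA female 9 was 69.5 CPM, beside a next value of 35.6 and a group median of 25.6 CPM. Irs1 in lung of aPAPPA female 33 was 62.01 CPM, beside a next value of 41.6 and a group median of 30.1 CPM. Irs1 in subscapular fat of aPAPPA female 23 was 327 CPM, beside a next value of 188 and a group median of 145 CPM. Irs2 in spleen of aPAPPA female 6 was 71.7 CPM, beside a next value of 51.3 and a group median of 44.4 CPM. The heart of male 56 and the skin of female 36 are among the 6 libraries in doubt.

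The male against female effect differed among the 9 tissues (limma-voom F-test) for Igf1r (adjusted p = 0.00245), Insr (0.000378), Igf2r (0.00145) and Igf2 (0.00342). Without the 6 libraries in doubt the same 4 genes passed, with adjusted p of 0.000502, 6.43e-05, 0.00139 and 0.00327 in that order.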

How the results depend on the processing

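Without the libraries in doubt the aPAPPA estimate of heart Irs2 turned to -0.0837 log2 and that of Insr over the tissues to 0.0333 log2. Leaving out 1 mouse in turn, the estimates over the tissues ran between -0.0612 and 0.0192 for Insr (above 0 without mouse 36) and between -0.0249 and 0.0607 for Igf2r (below 0 without mouse 23). Without the 2 livers farthest from the Irs2 median, added after seeing the data, r with Irs2 turned to -0.168 for Insr and 0.0471 for Irs1. None of these passed a test in either setting, and the cause was not tested. The count of the 7 genes' calls stayed at 0 for aPAPPA in each tissue, over the tissues and between tissues, and for the sex by treatment term, under every alternative run. For sex it was 10, between 8 and 12 under the other tools, scalings and filters, and between 9 and 11 when each mouse was left out in turn in the 4 tissues with a call, an alternative chosen after seeing the data. Over all genes, aPAPPA against control called 1 gene in the 9 tissues, 2 with DESeq2 and 2 with no filter on low counts. Effects that differed between tissues numbered 56 genes, and 15 without the libraries in doubt; the cause was not tested. Kidney Igf2, subscapular Igf1r and subscapular Irs1 lost their sex calls in some settings: with limma-voom kidney Igf2 had an adjusted p of 0.0609 and subscapular Irs1 0.0684, and with no filter subscapular Igf1r had 0.0628 and Irs1 0.0964. With the mouse as replicate block, 47 contrasts of a tissue against the others passed, against 48 without it, and 24 neighbouring pairs passed with and without it. The block changed no count of calls by over 1.5 times. Depth limits the scarce genes most: Igf2 passed the filter in 5 of 9 tissues.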
